A study of Homo sapiens with 12 samples.

Results

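The enzymes that make and balance the deoxynucleotides for DNA synthesis were followed in cytoplasmic RNA through 9 genes. These were the ribonucleotide reductase subunit genes RRM1, RRM2 and RRM2B, the thymidylate route genes TYMS, TK1, DUT and DTYMK, the deoxycytidine kinase gene DCK and the CTP synthase gene CTPS1. The members were all array probes whose transcript accession belonged to one of these genes in RefSeq, which gave 12 of 34127 probes and 9 of 27522 gene names. RRM2B, DUT and CTPS1 had 2 probes each and the other 6 genes had 1 probe each. All 12 probes were well above background on all 12 arrays, so all 9 members passed the filter on dim probes.

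RNA came from U2OS cells, a human osteosarcoma line. The cells were transfected with 20 nM of a control siRNA or of siRNA against DBP5, GLE1 or IPPK, carried by Lipofectamine2000 in all 4 groups. DBP5, also named DDX19, is an RNA helicase of mRNA export at the nuclear pore, GLE1 is its activator, and IPPK is the kinase that makes inositol hexakisphosphate, a cofactor of that activation. The comparisons ask how the loss of each factor alters the cytoplasmic mRNA pool. Each siRNA was measured on 3 arrays of 1 colour, 1 on each of 3 slides. Loss of a factor by siRNA is called depletion here. The methods call the replicate arrays independent experiments, but no source used here names separate cultures, so p-values measure the spread between these arrays. DBP5 was targeted by a single siRNA in the study, GLE1 and IPPK by several, and the sources used here do not say which of these went with the arrays. No nuclear RNA was on them, so that less transcript in the cell and less transcript in the cytoplasm cannot be told apart.

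The siRNA targets were measured as a check of the labels. DDX19B, the gene of DBP5 on the array, was at 0.0643 ± 0.00121 of control after DBP5 siRNA, its close paralog DDX19A at 0.0537 ± 0.00258, GLE1 at 0.102 ± 0.0274 after GLE1 siRNA and IPPK at 0.187 ± 0.00815 after IPPK siRNA (SD, n = 3 each). The targets also moved under siRNA against the other factors: DDX19A was at 0.301 ± 0.00413 of control after IPPK siRNA, IPPK at 0.420 ± 0.0142 after DBP5 siRNA, and DDX19B at 0.490 ± 0.0237 and DDX19A at 0.541 ± 0.00934 after GLE1 siRNA (limma adjusted p = 2.1e-09, 7.9e-08, 3.6e-08 and 7.8e-08). The depletions were thus not confined to their own targets among these transcripts. Of the lineage markers, VIM, SPARC, COL1A1, RUNX2 and ALPL were well above background on all 12 arrays. COL1A2 was so on 3 of 3 control arrays, 1 of 3 GLE1 siRNA arrays and 0 of the DBP5 and IPPK siRNA arrays. The summed log2 intensity of these 6 markers was 60.5 to 62.6 on control, 61.1 to 61.5 on DBP5, 61.0 to 61.4 on GLE1 and 57.1 to 57.6 on IPPK siRNA arrays. Of 3 epithelial markers, EPCAM and KRT19 were well above background on all 12 arrays, and CDH1 on 0 of 3 control, 3 of 3 DBP5, 3 of 3 GLE1 and 2 of 3 IPPK siRNA arrays. The summed log2 intensity of the 3 epithelial markers was 19.5 to 20.0 on control, 19.8 to 20.0 on DBP5, 23.0 to 23.9 on GLE1 and 18.7 to 20.2 on IPPK siRNA arrays. For the 3 measured RNAs of 4 that are kept in the nucleus, it was 31.3 to 31.6, 31.3 to 31.8, 31.7 to 32.6 and 30.4 to 31.1 in the same order. That sum joins opposite moves. KCNQ1OT1 was at log2 differences of 0.64, 0.84 and 0.22 from control after DBP5, GLE1 and IPPK siRNA, all with limma adjusted p below 0.05. MALAT1 was at -0.53, -0.33 and -1.08, below 0.05 for IPPK siRNA alone. MEG3 was at -0.08, 0.31 and 0.05, below 0.05 for GLE1 siRNA alone. The liver marker ALB was well above background on 0 of 3 control, 3 of 3 DBP5, 2 of 3 GLE1 and 0 of 3 IPPK siRNA arrays. The part of these differences in the results on the members was not tested.

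Ribonucleotide reductase turns ribonucleotides into deoxyribonucleotides, the rate-limiting step of DNA precursor synthesis. Its large subunit, RRM1, carries the catalytic and the allosteric sites and pairs with a small subunit that holds a tyrosyl radical. RRM2 is the small subunit of S phase. RRM2B, also named p53R2, is the small subunit that p53 induces and that serves DNA repair and mitochondrial DNA outside S phase. TYMS methylates dUMP to dTMP with a folate cofactor, DUT hydrolyses dUTP to dUMP and so keeps uracil out of DNA, TK1 phosphorylates salvaged thymidine in cycling cells, and DTYMK turns dTMP into dTDP for both routes. DCK phosphorylates salvaged deoxycytidine and other deoxynucleosides, and CTPS1 makes CTP from UTP. RRM2, TYMS, TK1 and DUT are S phase genes, a class that E2F factors and the CCAAT-binding factor NF-Y are known to control.

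The promoters of 4 members that fell in every depletion are shown because they hold different short motifs. RefSeq (GRCh38.p14) gave windows of 300 bases, from 250 before to 50 after a start, for 8 of the 9 members and 14 starts in all, and none for RRM2B. The windows run 5′ to 3′ on the strand of the gene, and for RRM2, TK1 and DUT, which had several starts, the window with the most matches was chosen after the search. Capitals mark a match on either strand of an E2F motif, searched as TTTCCCGC, TTTCGCGC, TTTGCCGC or TTTGGCGC, or of CCAAT, the core of the NF-Y motif. No match of one motif overlapped a match of the other.
RRM2, chr2:10122489-10122788, plus strand, 3 matches of CCAAT: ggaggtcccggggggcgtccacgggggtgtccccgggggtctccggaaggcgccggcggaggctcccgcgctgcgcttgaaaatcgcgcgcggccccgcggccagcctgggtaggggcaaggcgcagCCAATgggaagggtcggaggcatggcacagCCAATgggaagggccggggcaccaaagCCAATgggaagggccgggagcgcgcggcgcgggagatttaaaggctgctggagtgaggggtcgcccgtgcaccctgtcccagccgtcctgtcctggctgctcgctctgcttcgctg
TYMS, chr18:657403-657702, plus strand, 1 match of the E2F motif: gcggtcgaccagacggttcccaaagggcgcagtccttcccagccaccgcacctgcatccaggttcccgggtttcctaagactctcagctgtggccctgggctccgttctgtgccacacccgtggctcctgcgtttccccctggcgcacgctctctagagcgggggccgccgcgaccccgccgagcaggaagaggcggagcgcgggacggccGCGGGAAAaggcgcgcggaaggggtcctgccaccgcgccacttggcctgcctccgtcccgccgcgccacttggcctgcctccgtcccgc
TK1, chr17:78187003-78187302, minus strand, 2 matches of CCAAT: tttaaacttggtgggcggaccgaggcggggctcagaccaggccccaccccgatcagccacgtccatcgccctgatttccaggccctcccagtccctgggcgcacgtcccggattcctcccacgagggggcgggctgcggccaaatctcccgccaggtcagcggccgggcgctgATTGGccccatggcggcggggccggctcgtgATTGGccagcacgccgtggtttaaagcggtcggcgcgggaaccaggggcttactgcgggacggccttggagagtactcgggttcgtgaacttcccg
DUT, chr15:48331947-48332246, plus strand, 2 matches of the E2F motif: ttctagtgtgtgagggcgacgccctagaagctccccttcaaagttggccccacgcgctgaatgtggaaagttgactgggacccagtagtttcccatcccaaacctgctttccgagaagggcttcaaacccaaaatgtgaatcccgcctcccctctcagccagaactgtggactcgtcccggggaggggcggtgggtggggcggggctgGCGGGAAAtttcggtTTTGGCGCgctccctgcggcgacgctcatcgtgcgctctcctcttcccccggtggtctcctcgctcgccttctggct
The E2F motif was present in 3 of the 14 windows, 1 each of TYMS, DUT and DCK, and in 3.31% of 35116 promoter windows of all genes. CCAAT was present in 5 of the 14, of RRM1, RRM2, TK1 and DTYMK, and in 34.6% of all windows. At least 2 matches of CCAAT, as in RRM2, TK1 and DTYMK, were found in 10.8% of all windows. A match describes the letters alone, and no binding was measured.

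Against control siRNA, 5 members fell in all 3 depletions: RRM1, RRM2, TYMS, TK1 and DUT. DCK rose in all 3, and RRM2B did so on its dimmer probe but not on its brighter one. Over all 20818 genes tested, 12.5% were lower and 13.1% higher in all 3 depletions, which share the control arrays. Both RRM2B probes rose after GLE1 and IPPK depletion, and they disagreed after DBP5 depletion. DTYMK and CTPS1 moved least, with ratios to control between 0.762 and 1.15.

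By comparison, 5 members fell and 1 rose after DBP5 depletion, where limma with Benjamini-Hochberg adjustment called 27.5% of all genes lower and 26.8% higher. After GLE1 depletion 7 members fell and 2 rose, against 31.5% of all genes lower and 30.6% higher. After IPPK depletion 5 fell and 3 rose, against 28% lower and 27.3% higher. With the methods' paired test after adjustment, 3 members were lower after IPPK depletion, since TYMS and DUT did not pass, and so 3 of the 5 members that fell in all 3 depletions did so by that test. The median log2 difference of the 9 members came to -0.49, -1.22 and -0.41 after DBP5, GLE1 and IPPK depletion, and that of all genes was -0.02, 0.01 and -0.03. At least 2-fold lower were 1, 5 and 0 members in the same order, where all genes gave 4.55%, 8.51% and 5.42%. At least 2-fold higher were 1, 2 and 1 members, where all genes gave 5.33%, 7.87% and 5.83%. The arrays of a depletion lay wholly below the control arrays for 6, 7 and 5 members (30.6%, 34.6% and 32.8% of all genes) and wholly above them for 1, 2 and 3 (28.5%, 33.9% and 30.9%). In RNA of a whole culture, fewer cells in S phase and less RNA per cell cannot be told apart.

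**Figure D1:**
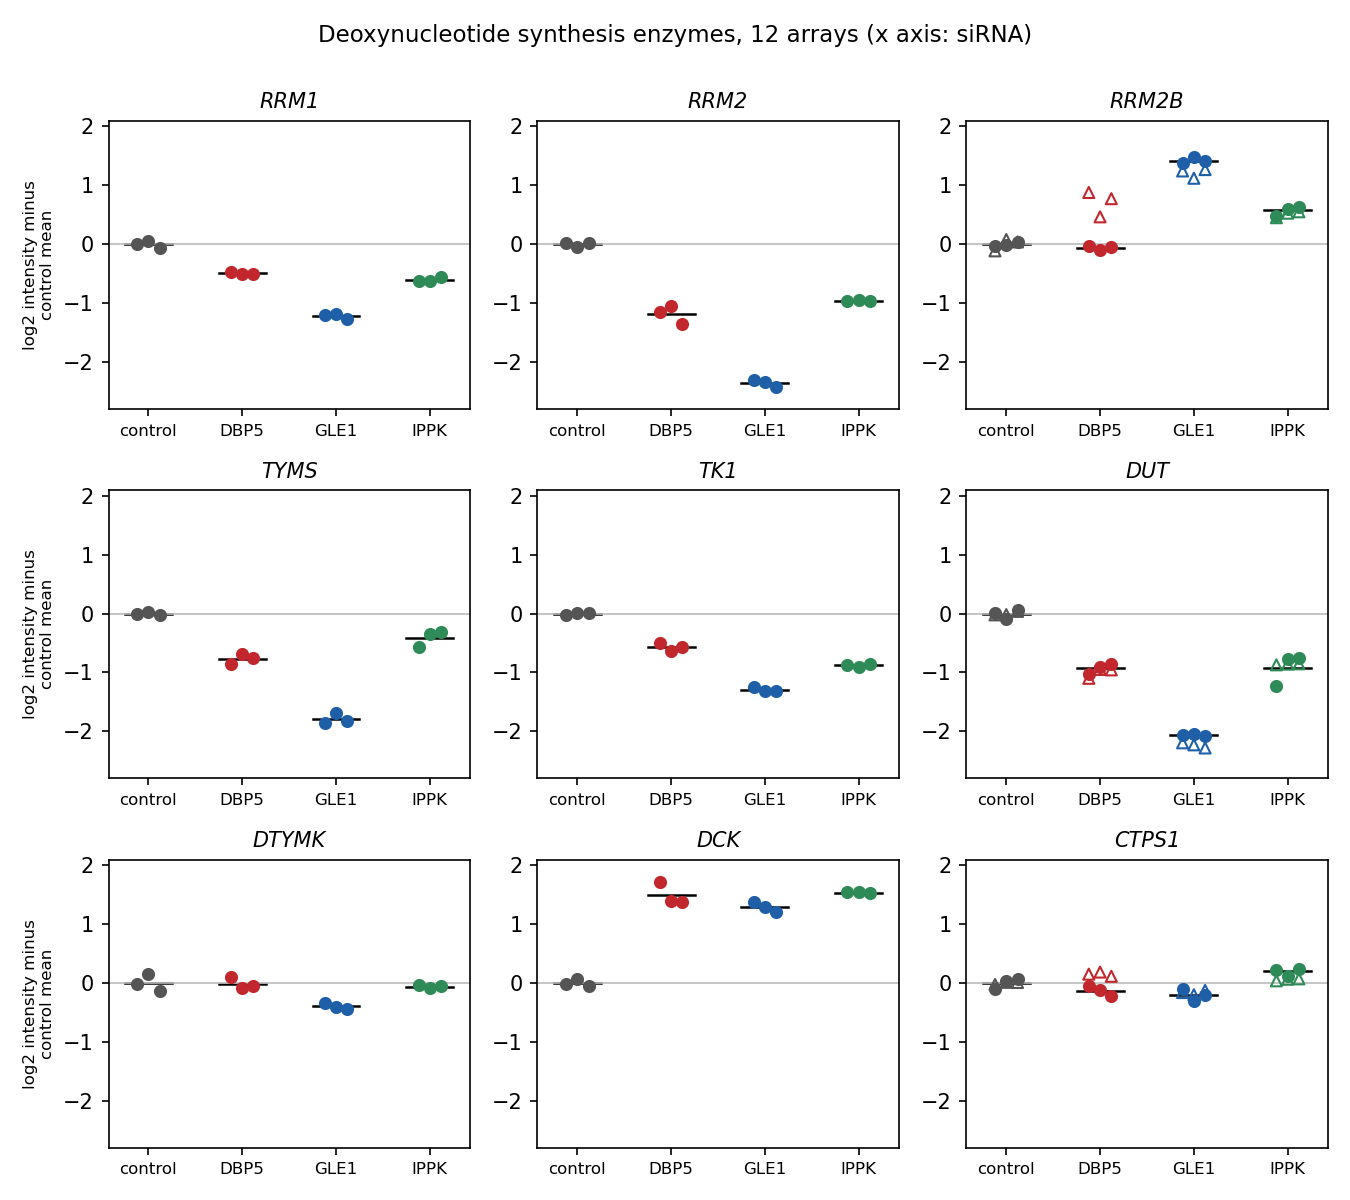
Normalized log2 intensity of each member minus its control mean (y axis, log2 scale) on each of the 12 arrays by siRNA (x axis); filled circles are the brighter or only probe, open triangles the second probe of RRM2B, DUT and CTPS1, and black bars the group mean of the brighter probe. The 3 circles of GLE1 siRNA lie lowest for RRM1, RRM2, TYMS, TK1 and DUT and highest for RRM2B, and the triangles of RRM2B stand apart from its circles after DBP5 siRNA.

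RRM2 (NM_001034), the S phase small subunit, fell more than any other member after DBP5 and GLE1 depletion. After IPPK depletion its log2 difference of -0.96 was also the lowest, close to -0.92 for DUT. Over the alternatives run, the 2 ranges overlapped there, from -0.98 to -0.91 for RRM2 and from -1.11 to -0.76 for DUT. Its normalized log2 intensity was 12.81, 12.74 and 12.80 on the control arrays, 11.64, 11.73 and 11.43 on the DBP5, 10.48, 10.45 and 10.35 on the GLE1 and 11.82, 11.84 and 11.82 on the IPPK siRNA arrays. The control arrays were highest and the GLE1 siRNA arrays lowest, and none of the 4 groups overlapped. The cytoplasmic level of RRM2 was 0.439 ± 0.0468 of control after DBP5 depletion, with a log2 difference of -1.19 ± 0.0732 (limma adjusted p = 3.5e-07). After GLE1 depletion it was 0.195 ± 0.00899 of control, a 5.12-fold fall (limma adjusted p = 1.8e-09). After IPPK depletion it was 0.513 ± 0.00397 of control (limma adjusted p = 1.4e-06). Throughout, the ± of a ratio to control is the SD over the 3 depletion arrays, the ± of a log2 difference is limma's standard error, intervals are 95% intervals, and adjusted p-values are two-sided and adjusted over all genes unless stated.

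The depletions also differed from each other in RRM2. GLE1 depletion was below DBP5 depletion (log2 difference -1.17, limma adjusted p = 3.6e-07) and below IPPK depletion (-1.40, limma adjusted p = 7.4e-08). DBP5 depletion was below IPPK depletion by a log2 difference of -0.23, with an interval of -0.39 to -0.06 (limma adjusted p = 0.026). That call was lost in a fit of the 6 arrays alone (limma adjusted p = 0.087) and without any 1 of IPPK replicates 1 to 3 (0.056 to 0.069), and without DBP5 replicate 3 the difference was -0.14 (0.074).

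RRM1 (NM_001033), the large subunit, fell with RRM2 but by less. Its log2 intensity was 14.07, 14.11 and 14.00 on control, 13.58, 13.55 and 13.56 on DBP5, 12.86, 12.88 and 12.78 on GLE1 and 13.43, 13.43 and 13.49 on IPPK siRNA arrays. The order of the groups was control, DBP5, IPPK and GLE1, with no overlap. The ratios to control were 0.710 ± 0.00754, 0.429 ± 0.0146 and 0.656 ± 0.0175 after DBP5, GLE1 and IPPK depletion (limma adjusted p = 8.4e-06, 7.1e-09 and 1.6e-06). Both subunits of the S phase enzyme were lowest after GLE1 depletion. DBP5 and IPPK depletion differed by 0.11 in RRM1 (interval 0.01 to 0.22), which did not pass after adjustment (limma adjusted p = 0.071).

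RRM2B (NM_015713), the small subunit that p53 induces, moved against RRM2 after GLE1 and IPPK depletion. On its brighter probe the log2 intensity was 9.90, 9.91 and 9.97 on control, 9.89, 9.83 and 9.87 on DBP5, 11.30, 11.40 and 11.34 on GLE1 and 10.41, 10.53 and 10.56 on IPPK siRNA arrays. The GLE1 siRNA arrays were highest and the IPPK siRNA arrays next, while the DBP5 siRNA arrays lay just below the control arrays. The level was 2.68 ± 0.0952 times control after GLE1 depletion (log2 difference 1.42 ± 0.053, limma adjusted p = 5.3e-09). After IPPK depletion it was 1.49 ± 0.082 times control (log2 difference 0.57 ± 0.053, limma adjusted p = 6.1e-06). After DBP5 depletion it was 0.957 ± 0.0202 of control, with a log2 difference of -0.06 and an interval of -0.18 to 0.06 (limma adjusted p = 0.36).

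The second, dimmer probe of RRM2B, listed for the same transcript, gave another value after DBP5 depletion. Its log2 intensity was 8.97, 9.16 and 9.12 on control, 9.96, 9.55 and 9.86 on DBP5, 10.33, 10.20 and 10.35 on GLE1 and 9.53, 9.61 and 9.63 on IPPK siRNA arrays. All depletion arrays lay above all control arrays on this probe, and the DBP5 and IPPK siRNA arrays overlapped. The ratios to control were 1.63 ± 0.236, 2.31 ± 0.125 and 1.42 ± 0.0515 after DBP5, GLE1 and IPPK depletion (limma adjusted p = 1.5e-04, 1.7e-06 and 0.0014 over all probes). The rise of RRM2B after GLE1 and IPPK depletion was thus seen on both probes, and its level after DBP5 depletion depended on the probe. With the mean of both probes, the log2 difference after DBP5 depletion was 0.32 (limma adjusted p = 0.0021).

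The contrast of RRM2 with RRM2B was taken on each array as the log2 intensity of the RRM2 probe minus that of the brighter RRM2B probe. Its size within a group depends on the probes used, so it is compared between groups alone. It was 2.91, 2.83 and 2.84 on control, 1.74, 1.90 and 1.56 on DBP5, -0.82, -0.95 and -0.99 on GLE1 and 1.41, 1.31 and 1.25 on IPPK siRNA arrays. The 4 groups did not overlap, with control highest and GLE1 siRNA lowest. The means of control, DBP5, GLE1 and IPPK siRNA were 2.86 ± 0.0473, 1.73 ± 0.173, -0.917 ± 0.0902 and 1.33 ± 0.0812 (SD, n = 3 each). An exact permutation test over all 369600 assignments of the 12 arrays to 4 groups gave p = 6.49e-05, the smallest it can give. Permuting within slides alone gave an exact permutation p = 0.00174, also the smallest that this scheme can give. Against control the contrast shifted by -1.13 after DBP5, -3.78 after GLE1 and -1.53 after IPPK depletion. Each pair of groups gave an exact two-sided permutation p = 0.1, the smallest that 3 against 3 arrays allow.

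With the dimmer RRM2B probe the contrast shifted by -1.89, -3.57 and -1.47 in the same order, with an exact permutation p = 1.3e-04 over the 4 groups. The fall after GLE1 depletion was the largest of the 3 with either probe. The order of the other two depended on the probe: DBP5 minus IPPK depletion was 0.41 with the brighter, -0.42 with the dimmer and -0.0070 with the mean of both probes.

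**Figure D2:**
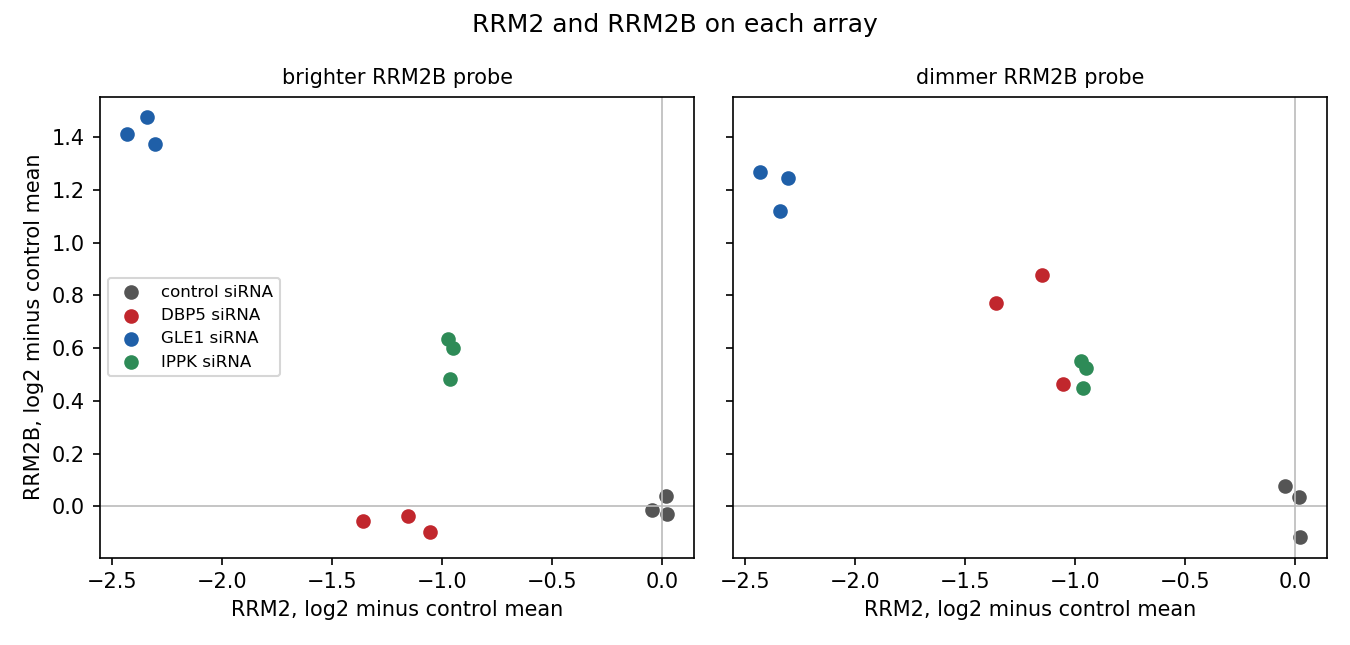
Change of RRM2 (x axis, log2 intensity minus control mean) against that of RRM2B (y axis, same unit) on each of the 12 arrays, with the brighter RRM2B probe in the left and the dimmer one in the right panel; 1 point is 1 array, coloured by siRNA. The GLE1 siRNA arrays lie at the upper left in both panels, near -2.36 on the x axis, and the DBP5 siRNA arrays lie near 0 on the y axis in the left panel and above 0 in the right.

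TYMS (NM_001071), thymidylate synthase, fell in all 3 depletions. Its log2 intensity was 17.53, 17.57 and 17.51 on control, 16.68, 16.85 and 16.78 on DBP5, 15.68, 15.85 and 15.72 on GLE1 and 16.98, 17.20 and 17.22 on IPPK siRNA arrays. The order was control, IPPK, DBP5 and GLE1, and no groups overlapped. The ratios to control were 0.586 ± 0.0347 after DBP5, 0.289 ± 0.0181 after GLE1 and 0.754 ± 0.0679 after IPPK depletion (limma adjusted p = 1.1e-05, 1.3e-08 and 9.9e-04). The call after IPPK depletion was lost with the methods' paired test (adjusted p = 0.074). DBP5 depletion was below IPPK depletion by a log2 difference of -0.36 (limma adjusted p = 0.0025), which that test did not call either (adjusted p = 0.057).

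DUT (NM_001025248), the enzyme that hydrolyses dUTP, was next to RRM2 in the size of its fall after GLE1 depletion. On its brighter probe the log2 intensity was 16.75, 16.65 and 16.81 on control, 15.72, 15.83 and 15.89 on DBP5, 14.67, 14.69 and 14.67 on GLE1 and 15.50, 15.96 and 15.98 on IPPK siRNA arrays. All depletion arrays lay below all control arrays, and IPPK replicate 1 lay below the other two of its group. The ratios to control were 0.527 ± 0.0313, 0.240 ± 0.00211 and 0.528 ± 0.0954 after DBP5, GLE1 and IPPK depletion (limma adjusted p = 5.4e-05, 8.2e-08 and 5.5e-05). The call after IPPK depletion was lost on this probe with the methods' paired test (adjusted p = 0.071). The second probe of DUT gave ratios of 0.50 ± 0.029, 0.212 ± 0.00648 and 0.551 ± 0.00341, with the IPPK siRNA arrays at 12.75, 12.76 and 12.76. The distance of IPPK replicate 1 was thus seen on 1 of the 2 probes. DBP5 minus IPPK depletion was -0.0035 on the brighter probe, with an interval of -0.26 to 0.25, and -0.14 on the second probe (limma adjusted p = 0.048 over all probes).

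TK1 (NM_003258), the thymidine kinase of cycling cells, fell further after IPPK than after DBP5 depletion. Its log2 intensity was 17.74, 17.79 and 17.78 on control, 17.27, 17.13 and 17.21 on DBP5, 16.53, 16.46 and 16.45 on GLE1 and 16.90, 16.87 and 16.91 on IPPK siRNA arrays. The 4 groups did not overlap, in the order control, DBP5, IPPK and GLE1. The ratios to control were 0.675 ± 0.0327, 0.409 ± 0.012 and 0.545 ± 0.00896 after DBP5, GLE1 and IPPK depletion (limma adjusted p = 3.7e-06, 5.5e-09 and 1.4e-07). DBP5 depletion was above IPPK depletion by 0.31 (limma adjusted p = 3.9e-04), a call that was lost with the table of processed log2 values (0.20, limma adjusted p = 0.059) and with the methods' paired test on the same values (adjusted p = 0.051).

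DTYMK (NM_012145), the kinase shared by the de novo and the salvage route to dTTP, passed the test after GLE1 depletion and not after the others. Its log2 intensity was 15.85, 16.02 and 15.74 on control, 15.97, 15.79 and 15.82 on DBP5, 15.54, 15.47 and 15.43 on GLE1 and 15.83, 15.78 and 15.81 on IPPK siRNA arrays. The GLE1 siRNA arrays lay below all others, and the other 3 groups overlapped. The ratio to control was 0.762 ± 0.0277 after GLE1 depletion (limma adjusted p = 8.8e-04), a call that was lost with the methods' paired test (adjusted p = 0.071). The log2 difference was -0.01 after DBP5 (interval -0.18 to 0.15) and -0.06 after IPPK depletion (interval -0.23 to 0.10). GLE1 depletion was also below DBP5 depletion (-0.38, limma adjusted p = 0.0014) and below IPPK depletion (-0.33, limma adjusted p = 0.0029).

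DCK (NM_000788), the salvage kinase for deoxycytidine, rose in all 3 depletions. Its log2 intensity was 7.55, 7.64 and 7.53 on control, 9.29, 8.96 and 8.96 on DBP5, 8.95, 8.87 and 8.78 on GLE1 and 9.13, 9.11 and 9.10 on IPPK siRNA arrays. Every depletion array lay above every control array, and the IPPK siRNA arrays lay within the range of the DBP5 siRNA arrays. The ratios to control were 2.83 ± 0.392 after DBP5, 2.45 ± 0.151 after GLE1 and 2.91 ± 0.0316 after IPPK depletion (limma adjusted p = 2.5e-07, 3.9e-07 and 1.8e-07). In DCK, unlike in the members that fell, GLE1 depletion did not stand farthest from control. It was below IPPK depletion by a log2 difference of -0.25 (limma adjusted p = 0.034), which was lost when any of IPPK replicates 1 to 3 or GLE1 replicate 2 or 3 was left out (limma adjusted p = 0.065 to 0.12). It was below DBP5 depletion by -0.20, which passed with the slide as a block (limma adjusted p = 0.048) and not without it (0.074). DBP5 and IPPK depletion differed by -0.04, with an interval of -0.24 to 0.16.

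CTPS1 (NM_001905), an enzyme that supplies CTP to proliferating cells, moved little, and its probes gave different calls. On the brighter probe the log2 intensity was 14.23, 14.36 and 14.39 on control, 14.27, 14.21 and 14.11 on DBP5, 14.22, 14.03 and 14.13 on GLE1 and 14.56, 14.45 and 14.57 on IPPK siRNA arrays. The IPPK siRNA arrays lay above and the GLE1 siRNA arrays below the control arrays, by margins smaller than the spread of the control arrays. The log2 difference was -0.13 for DBP5 (limma adjusted p = 0.14), -0.20 for GLE1 (0.028) and 0.20 for IPPK depletion (0.034). The call after GLE1 depletion was lost without control replicate 2 or 3 or GLE1 replicate 2 or 3 (limma adjusted p = 0.062 to 0.11), and that after IPPK depletion without control replicate 1 or 2 or IPPK replicate 1 or 3 (0.052 to 0.13). On the second probe the log2 difference was 0.15 for DBP5, -0.16 for GLE1 and 0.06 for IPPK depletion (limma adjusted p = 0.012, 0.0073 and 0.28 over all probes). The fall after GLE1 depletion was seen on both probes, and the signs after DBP5 depletion were opposite.

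**Figure D3:**
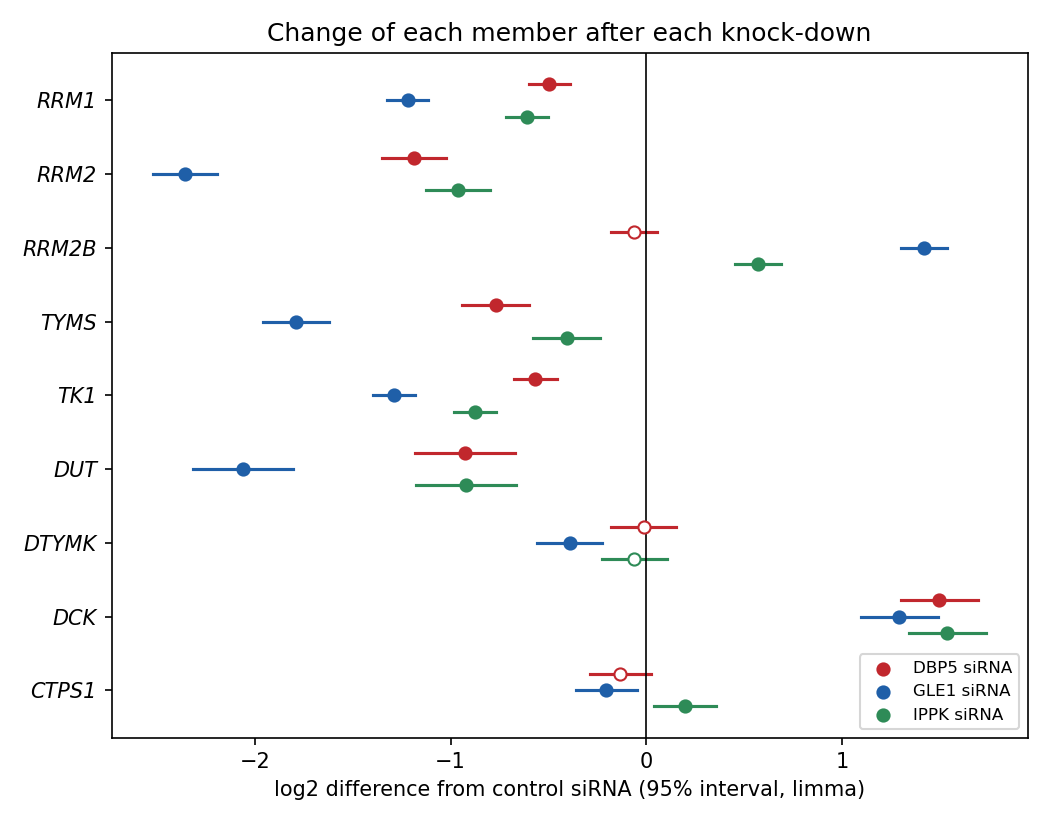
Log2 difference of each member from control siRNA (x axis) after DBP5, GLE1 and IPPK depletion, on the brighter or only probe; points are group differences, lines their 95% intervals from limma, and open points did not pass an adjusted p of 0.05. The GLE1 points lie farthest to the left for RRM1, RRM2, TYMS, TK1, DUT and DTYMK, and the 3 points of DCK lie together between 1.29 and 1.54.

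Between the depletions, GLE1 depletion gave the lower level for most members. Against DBP5 depletion 6 members were lower and 1 higher, where all genes gave 28% lower and 26.5% higher. Against IPPK depletion 8 were lower and 1 higher, where all genes gave 30.8% and 29.4%. Past a 2-fold difference were 3 lower and 1 higher against DBP5 depletion (5.39% and 4.69% of all genes), 3 lower and 0 higher against IPPK depletion (7.23% and 6.23%). The GLE1 siRNA arrays lay wholly below those of DBP5 siRNA for 7 members and above for 1 (30.5% and 30.1% of all genes), and below those of IPPK siRNA for 8 and above for 1 (34.1% and 33.8%). RRM2B was the member that was higher in both, by log2 differences of 1.48 and 0.85 on the brighter probe and of 0.51 and 0.70 on the dimmer probe. DBP5 against IPPK depletion gave 4 members lower (RRM2, RRM2B, TYMS and CTPS1) and 1 higher (TK1), against 25.1% and 23.8% of all genes. Under the alternatives run, that comparison gave 1 to 4 members lower and 0 to 2 higher. None of the members differed by 2-fold there (3.34% of all genes lower and 3.4% higher), and 4 lay wholly below and 2 wholly above (28.7% and 27.5%). In that comparison CTPS1 was at -0.33 on the brighter probe (limma adjusted p = 0.0028) and at 0.09 on the second (0.099 over all probes), and RRM2B was at -0.64 on the brighter probe (limma adjusted p = 4.5e-06) and at 0.20 on the dimmer one (limma adjusted p = 0.13 over all probes).

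Across the 12 arrays, which share the differences between siRNAs, the 5 members that fell in all depletions rose and fell together. Pearson's r of RRM2 was 0.976 with RRM1, 0.978 with DUT, 0.971 with TYMS and 0.929 with TK1. It was -0.821 with the brighter RRM2B probe and -0.662 with DCK. Over 18410 other genes well above background on all arrays, those most like RRM2 by Pearson's r over the 12 arrays were KIF2C (0.996), a mitotic kinesin, a transcript listed as ENST00000542925 (0.996), TRIP13 (0.995), an ATPase of the spindle checkpoint, DCLRE1C (0.994), the nuclease Artemis, and CHEK1 (0.993), a checkpoint kinase. For the brighter RRM2B probe they were EIF3C (0.994), a translation initiation factor subunit, SAMD9L (0.994), TMC7 (0.991), PAGE2 (0.987) and AOX1 (0.987), an aldehyde oxidase. After DBP5 depletion the log2 differences of these 5 genes ran from -0.11 to 0.01. The brighter RRM2B probe was at -0.06 there and the dimmer one, which was not used for this list, at 0.70. EIF3C shares sequence with a near-identical copy, which the array may not separate. These r values are descriptions over 4 groups of arrays and say nothing of shared function.

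Lists of genes around the members are given by their counts past the test. Each count is to be set against the share over all genes, which was 27.5% lower and 26.8% higher after DBP5, 31.5% and 30.6% after GLE1 and 28% and 27.3% after IPPK depletion. Of 16 genes of pyrimidine synthesis and nucleotide kinases, 5 fell and 7 rose after DBP5, 6 fell and 8 rose after GLE1 and 4 fell and 5 rose after IPPK depletion, with median log2 differences of 0.15, 0.17 and -0.05. The shares lower, and that higher after IPPK depletion, were near those of all genes. CMPK2, a mitochondrial nucleotide kinase, was at 0.498 ± 0.0441, 0.281 ± 0.0407 and 0.762 ± 0.0149 of control in the same order. NME4, a mitochondrial nucleoside diphosphate kinase, was at 2.01 ± 0.0498, 1.80 ± 0.166 and 1.24 ± 0.0745 times control, all past the test. CDA, which deaminates cytidine and deoxycytidine, fell to 0.336 ± 0.00998 of control after IPPK depletion (limma adjusted p = 6.7e-08), rose to 1.22 ± 0.0821 after GLE1 depletion (0.0084) and was at 0.870 ± 0.0861 after DBP5 depletion (0.053).

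The folate cycle feeds TYMS with its cofactor. Of its 10 listed genes, 7 fell and 1 rose after GLE1 depletion, while 5 fell and 2 rose after DBP5 and 3 fell and 4 rose after IPPK depletion (medians -0.40, -0.19 and -0.03). MTHFD1, the cytosolic folate interconversion enzyme, was at 0.848 ± 0.0672, 0.416 ± 0.0137 and 0.813 ± 0.0277 of control on depletion of DBP5, GLE1 and IPPK, and its mitochondrial relative MTHFD1L at 0.526 ± 0.0271, 0.754 ± 0.0117 and 0.788 ± 0.00763, all past the test.

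Of 16 genes of de novo purine synthesis, 6 fell and 5 rose after DBP5, 8 fell and 4 rose after GLE1 and 8 fell and 4 rose after IPPK depletion (medians -0.14, -0.23 and -0.10). The shares higher were near or below those of all genes. PAICS, an enzyme of the purine ring, rose to 2.46 ± 0.123, 2.17 ± 0.467 and 2.72 ± 0.0917 times control in the same order. IMPDH1, of guanine nucleotide synthesis, rose to 1.32 ± 0.0453, 1.75 ± 0.142 and 1.38 ± 0.0204 times control. PRPS1, which makes the ribose phosphate donor of the pathway, fell to 0.639 ± 0.121, 0.671 ± 0.0363 and 0.426 ± 0.0138 of control.

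Of 21 genes of nucleoside salvage, transport and breakdown, 10 fell and 2 rose after DBP5, 12 fell and 6 rose after GLE1 and 12 fell and 1 rose after IPPK depletion (medians -0.18, -0.22 and -0.22). The shares lower were above those of all genes, and the share higher after GLE1 depletion was near that of all genes. TK2, the mitochondrial thymidine kinase, was after GLE1 depletion at 0.110 ± 0.0118 of control (limma adjusted p = 3.5e-09), against 0.997 ± 0.108 after DBP5 (0.98) and 0.705 ± 0.0841 after IPPK depletion (0.0028). ADA, adenosine deaminase, rose to 1.85 ± 0.0318, 2.20 ± 0.0216 and 1.83 ± 0.0291 times control after DBP5, GLE1 and IPPK depletion. UPP1, uridine phosphorylase, fell to 0.452 ± 0.00474, 0.469 ± 0.0237 and 0.691 ± 0.00111 of control. SAMHD1, which breaks down deoxynucleotide triphosphates and was named after its values were seen, was at 1.05 ± 0.195, 1.17 ± 0.123 and 1.02 ± 0.142 times control and passed the test in no depletion (limma adjusted p = 0.77, 0.29 and 0.92).

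Of 13 genes of the E2F and RB families, which control S phase genes, 8 fell and 2 rose after DBP5, 9 fell and 2 rose after GLE1 and 8 fell and 2 rose after IPPK depletion (medians -0.30, -0.87 and -0.36), above the shares lower of all genes. E2F2, an activator of S phase genes, was at 0.160 ± 0.00565, 0.0487 ± 0.00269 and 0.253 ± 0.0122 of control, E2F1, another activator, at 0.513 ± 0.0546, 0.278 ± 0.0144 and 0.464 ± 0.017, and the repressor E2F8 at 0.316 ± 0.0397, 0.180 ± 0.00617 and 0.373 ± 0.00881. Of 12 other S phase genes, 10 fell and 1 rose after DBP5 and IPPK depletion, and 11 fell and 0 rose after GLE1 depletion (medians -0.79, -0.59 and -1.62). The rise was that of CDC6, named after its values were seen, with log2 differences of 1.09 and 1.22. MCM6 of the replicative helicase was at 0.143 ± 0.0388, CCNE2, a cyclin of the start of S phase, at 0.154 ± 0.00301 and CDC45, a helicase partner, at 0.269 ± 0.018 of control after GLE1 depletion. These were named for the largest mean log2 difference over the 3 depletions. The log2 difference of RRM2 in that depletion was -2.36, beside the median of -1.62 over the list.

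Of 6 genes known to control RRM2, 4 fell and 1 rose after DBP5 and after GLE1 depletion, and 4 fell and 2 rose after IPPK depletion (medians -0.41, -1.36 and -0.56). CCNF, the ubiquitin ligase subunit that directs RRM2 protein to degradation, was at 0.773 ± 0.103, 0.248 ± 0.0128 and 0.610 ± 0.042 of control on depletion of DBP5, GLE1 and IPPK. CHEK1, a kinase of the replication checkpoint, was at 0.532 ± 0.0139, 0.284 ± 0.0106 and 0.659 ± 0.00497, and its upstream kinase ATR rose to 1.95 ± 0.081, 1.73 ± 0.0419 and 2.39 ± 0.0165 times control. All 9 of these values passed the test.

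Genes of the p53 pathway, the class to which RRM2B belongs, rose in most cases. Of 22 genes tested of 23 listed, 17 rose and 2 fell after DBP5, 19 rose and 0 fell after GLE1 and 16 rose and 2 fell after IPPK depletion (medians 0.58, 1.05 and 0.72). TIGAR, a p53-induced regulator of glycolysis, was at 2.79 ± 0.311, 8.13 ± 0.213 and 4.09 ± 0.149 times control. BTG2, an antiproliferative gene, was at 1.77 ± 0.284, 4.19 ± 0.343 and 2.87 ± 0.214, and ZMAT3, an RNA-binding protein gene, at 2.71 ± 0.366, 2.97 ± 0.081 and 2.58 ± 0.164 times control. After DBP5 depletion these targets were thus higher while the brighter RRM2B probe was at 0.957 and the dimmer one at 1.63 times control.

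**Figure D4:**
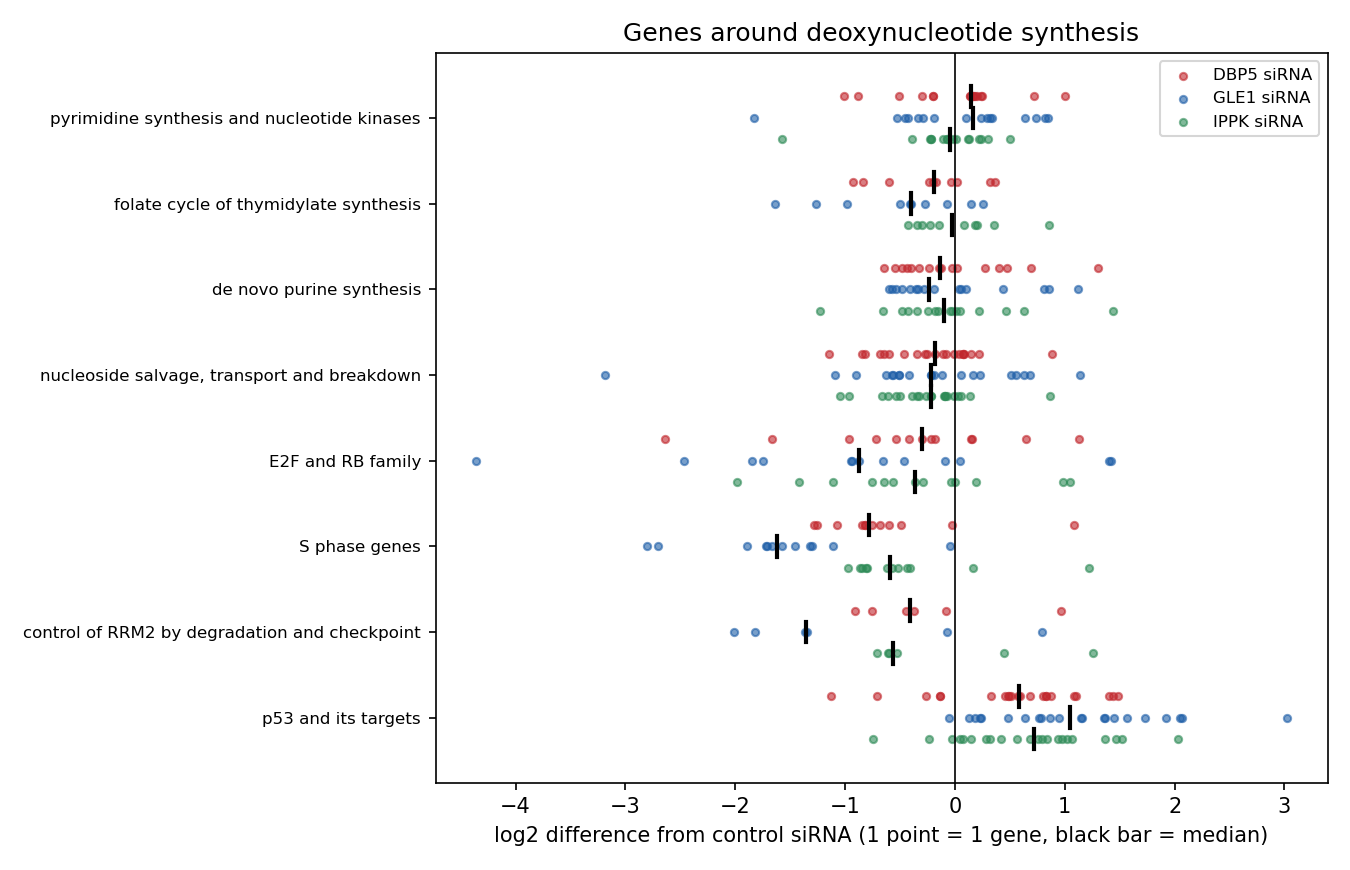
Log2 difference from control siRNA (x axis) of the genes of 8 lists around deoxynucleotide synthesis (y axis) after DBP5, GLE1 and IPPK depletion; 1 point is 1 gene and black bars are the medians. S phase genes lie mostly left of 0, with medians of -0.79, -1.62 and -0.59, and p53 targets mostly right of 0, with medians of 0.58, 1.05 and 0.72, while the metabolic lists lie on both sides.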

How the data were processed

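The 12 arrays (Agilent, one colour) held U2OS cytoplasmic RNA, with groups and replicate numbers taken from the labels. The authors deposited Feature Extraction (10.7.3.1) files with a linear background-subtracted intensity per spot and its flags, and a table of processed log2 values that the methods give as LOESS-normalized in R. That table followed the spot signal without background subtraction more closely than the subtracted one (Pearson's r of 0.961 to 0.967 with the latter), and its background setting is not given in the sources used here.

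Background-subtracted intensities were taken to log2, control and outlier spots (169 to 358 of 43118 per array) were left out, 0 spots were saturated, spots of a probe were averaged, and arrays were normalized by cyclic loess. Probes were named by accession through RefSeq (GRCh38.p14, for names and promoter windows; the array design names hg19), which matched 26449 of 34127 (77.5%). The brightest probe stood for a gene name. A gene entered the tests if this probe passed the scanner's background flag on each of the 3 arrays of any siRNA (20818 of 27522). Between 70.9% and 77.7% of probes per array were well above background, lowest with IPPK siRNA. Precision is limited by the number of arrays.

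Tests used limma 3.58.1 (R 4.3.3) on a single fit of the 12 arrays with a mean for every siRNA, and Benjamini-Hochberg adjustment over all genes in each of 6 comparisons, at 0.05; second probes were tested in a fit of all probes. The step was tested on simulated data. The RRM2 and RRM2B contrast was tested by exact permutation in Python 3.11.15 with numpy 2.4.6, and figures were drawn with matplotlib 3.10.9.

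The members, the lists, the tests and the promoter motifs were chosen with earlier results of these data known. Named genes were the members, the siRNA targets, up to 3 genes per list with the largest mean log2 difference over the depletions among those past the test in at least 1, and the 5 genes most correlated with RRM2 and with RRM2B. Same-numbered arrays of different siRNAs deviated together (r from 0.315 to 0.545 in 18 pairs), and a number marks a slide, so numbers pair the arrays. The 36 other pairs gave r from -0.333 to -0.0163. Deviations were taken from the group mean, which by itself forces the other pairs below 0 on average when same-numbered pairs are above it. Alternatives were other scalings and background corrections (normexp, offset 50), the processed values of the authors, the filter and the choice of probe. Others were the slide as a replicate block, the 6 arrays of a comparison alone, each array left out and a two-sided paired t-test over slides. The methods name that t-test for the study in general, and rank-product lists for the array genes, which were not rerun here. Real-time PCR, cytometry and imaging were not analysed here. Some genes that the rule or the marker lists name are not reported here.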

Additional observations from a re-analysis of the deposited data

Results flagged for a closer look

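CTPS1, the CTP synthase gene, differed between GLE1 and IPPK depletion. On its brighter probe the log2 difference from control was -0.20 after GLE1 and 0.20 after IPPK depletion, and GLE1 depletion differed from IPPK depletion by -0.402 (limma adjusted p = 5.6e-04, 3 arrays each, without overlap). On its second probe the same difference was -0.22 (limma adjusted p = 0.0012 over all probes), while IPPK depletion was at 0.06 against control (0.28). The opposite directions against control thus passed the test on the brighter probe alone. The IPPK call was also lost with 75th percentile scaling (limma adjusted p = 0.061), without the filter on dim probes (0.051) and with the mean of both probes (0.056). It was lost as well with the paired t-test (adjusted p = 0.16) and without control replicate 1 or 2 or IPPK replicate 1 or 3 (limma adjusted p = 0.052 to 0.13). The GLE1 call was lost in the 6 arrays alone (0.053), with the paired test (0.23) and without control or GLE1 replicate 2 or 3 (0.062 to 0.11).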

How the results depend on the processing

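Of 1242 values of members under 23 alternatives for each comparison, 1183 kept their direction and their side of the threshold, 35 lost and 6 gained a call, and 18 changed sign. The values of RRM1, RRM2, TK1 and DCK against control kept direction and call under every alternative run. Counts of members that differed by more than 1.5 times were these. With the mean of a gene's probes, 2 members were higher after DBP5 depletion. With the paired t-test after adjustment, 3 were lower after IPPK depletion, since TYMS (adjusted p = 0.074) and DUT (0.071) were lost. Before adjustment that test gave 5. In DBP5 against IPPK depletion, 2 members were higher with quantile normalization and 0 with the authors' values or the t-test (1 before adjustment), and 2 were lower by each probe on its own and 1 by the t-test. The other counts moved by less: over all alternatives, members lower numbered 5 to 6 after DBP5 and 5 to 7 after GLE1 depletion, 6 to 7 in GLE1 against DBP5 and 7 to 8 in GLE1 against IPPK depletion, and members higher 2 to 3 after IPPK depletion.

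Changes of sign were these. DUT in DBP5 against IPPK depletion was 0.0032 with 75th percentile scaling, 0.017 with quantile normalization, 0.14 with normexp, 0.14 with the authors' values and from -0.16 to 0.081 with an array left out. With the mean of probes against control after DBP5 depletion, RRM2B was 0.32 and CTPS1 0.010. By each probe on its own in DBP5 against IPPK depletion, RRM2B was 0.20 and CTPS1 0.093. With an array left out, DTYMK ranged from -0.077 to 0.061 after DBP5, from -0.13 to 0.011 after IPPK and from -0.0052 to 0.086 between them, and DCK from -0.15 to 0.016 in DBP5 against IPPK depletion. CTPS1 lost its call after IPPK depletion with 75th percentile scaling (adjusted p = 0.061), without the filter (0.051), with the mean of probes (0.056) and with the t-test (0.16), and after GLE1 depletion in the 6 arrays alone (0.053) and with the t-test (0.23), which also lost DTYMK (0.071). The cause of these changes was not tested.

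With the replicate block (slide), which pairs the arrays, the counts against control were unchanged at 5 lower after DBP5, 7 after GLE1 and 5 after IPPK depletion, and of all member calls 1 changed: DCK in GLE1 against DBP5 depletion, at -0.20 (limma adjusted p = 0.048). The largest shift of the RRM2 and RRM2B contrast, 3.78 in size, lay between 3.57 and 3.83 under its alternatives.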
